A study of Rattus norvegicus with 13 samples.

Results

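Rat lenses that had turned opaque in galactose were cultured on with C646 and CPTH2 together, and their RNA was compared with that of lenses left in galactose to the same day. C646 inhibits p300/CBP and CPTH2 inhibits Gcn5, both of them histone acetyltransferases (HATs), enzymes that place acetyl groups on histones and other proteins. The C646+CPTH2 sample was a single array (n = 1, 40 µM C646 and 80 µM CPTH2 in 30 mM galactose, day 6), and its reference was the galactose Day 6 group of 3 arrays (30 mM galactose, day 6). The compared items are 6007 genes of the 18166 with a probe set of 1 gene name, each represented by its probe set with the highest mean and kept where the log2 signal was 5 or more in at least 1 of the 4 arrays. The other 12159 genes stayed below that signal in all 4.

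All lenses came from six-week-old male Sprague Dawley rats and were cultured whole outside the body in M199 medium with BSA. Per the study's methods, inhibitors were added in DMSO after a white opacity had formed and the partner lens of each pair received DMSO alone. The labels of the galactose arrays do not name DMSO, and nothing links the C646+CPTH2 array to a partner lens among them. Further arrays used here were C646 alone (40 µM), CPTH2 alone (80 µM) and CBP30+CPTH2 (another p300/CBP inhibitor with 80 µM CPTH2) on day 6, 1 array each in galactose. The galactose Day 4 group had 3 arrays, and 1 control array came from a lens kept 4 days with sterile water in place of galactose. CBP30 alone and TH1834, an inhibitor of the HAT Tip60, had 1 array each in galactose on day 6 and served the fit. Per the study, the galactose samples of each day were 3 lenses, each with its own photograph. No source used here says that these lenses came from different animals, so p-values measure the spread between these samples alone. That spread may not be a spread between animals.

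The lens is a transparent organ without blood vessels. A single layer of epithelial cells covers its front, divides and feeds new fibre cells, which fill the organ with crystallin proteins and lose their nuclei. In galactose, aldose reductase turns the sugar into galactitol, which stays in the cells and draws in water. HATs open chromatin at promoters and enhancers, and p300/CBP and Gcn5 also acetylate transcription factors, so their inhibition can lower some transcripts and raise others.

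In the lens treated with C646+CPTH2, the detoxification genes Gsta1 and Nqo1, the lysosomal gene Lamp1 and the heat shock gene Hsph1 were among those that rose, while Txnip, the chemokine gene Ccl2, the histone genes Hist2h2be and H4c14 and the transcription factor gene Sox2 were among those that fell. In RNA of a whole lens, fewer cells of a type and less RNA per cell cannot be told apart. Of the 6007 genes, 72 (1.2%) passed an adjusted p of 0.05 in limma with Benjamini-Hochberg adjustment, called below: 54 higher (0.899%) and 18 lower (0.3%) than in galactose Day 6. A further count at unadjusted p under 0.05 gave 1070 genes (17.8%). The median log2 difference of all genes was 0.03, and 53.3% of them were positive. The smallest called log2 difference was 1.12, and the median 95% interval of a difference reached 0.573 to either side. Over all genes, the treated array lay above all 3 Day 6 arrays for 34.7% and below all 3 for 28.2%. It did so for 54 of the 54 genes called higher and 18 of the 18 called lower, from which nothing is read, since the calls were made on the same arrays. The same holds wherever a called gene is described below as above or below the Day 6 arrays.

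Log2 signals below 5 have no exact size because the deposited values came without a detection call. Of the 54 genes called higher, 25 were under 5 in all 3 Day 6 arrays and passed the signal minimum through the treated array, as did 274 of the 6007 genes (4.56%). Of the 18 called lower, 12 were under 5 in the treated array. For these genes the direction is given with a log2 difference that has no exact size.

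**Figure D1:**
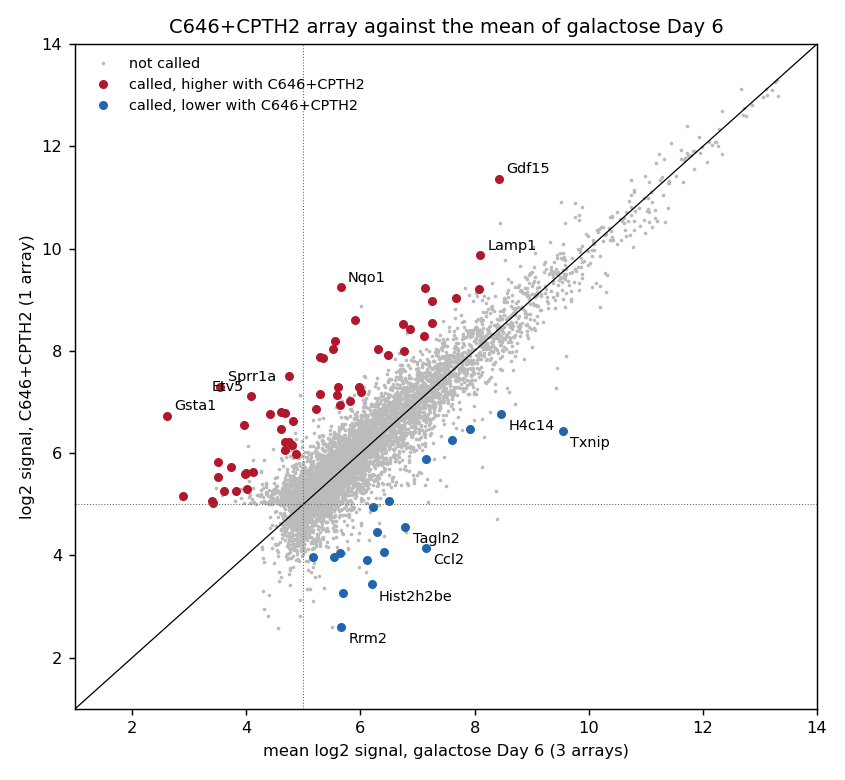
Log2 signal of each of the 6007 genes in the C646+CPTH2 array (n = 1, vertical axis) against the mean of the 3 galactose Day 6 arrays (horizontal axis), with called genes in colour. Of the 72 called genes, 54 lie above the diagonal and 18 below it, at log2 differences of at least 1.12.

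The arrays differed in ways that touch these counts. The C646+CPTH2 array stood at root mean square log2 differences of 0.560, 0.581 and 0.587 from Day 6 replicates 1, 2 and 3, against 0.312 between replicates 2 and 3 and 0.444 and 0.460 between replicate 1 and each of those. The lone array was assumed to vary like the galactose groups. Leaving out galactose Day 6 replicate 1, 2 or 3 removed the call of 36, 47 or 44 of the 72 genes and gave 50, 27 or 28 calls in all. The Day 4 arrays enter through the shared spread: leaving out Day 4 replicate 1, 2 or 3 removed 0, 33 or 33 and gave 126, 42 or 40. All 72 kept their direction in each of these 6 fits, which could not turn it. The treated array lay outside the Day 6 range for each of them, and the Day 4 arrays do not enter the difference. With replicates 2 and 3 of both days only, an alternative added once the data had been seen, the balance of calls turned, with 215 higher and 268 lower (44.5% higher, against 75.0% with all arrays). The 18 genes called in all 6 were Gsta1, Sprr1a, Nqo1, Etv5, Gdf15, Map6, Tuba4a, Ciart, Hsph1, Tent5a, Cry1, Hamp, Gtf2h1, Lamp1, Egr1, Trim2, Hspa2 and Hist2h2be. For any other called gene described with its values, the highest adjusted p over these 6 fits is given as the leave-one-out adjusted p. With each gene's own spread, not drawn towards that of other genes, 0 of the 72 were called, the 18 included.

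Detoxification and antioxidant genes were among the largest increases. Gsta1, a glutathione S-transferase that couples glutathione to reactive compounds, had a log2 signal of 6.73 in the C646+CPTH2 lens, against 3.03, 2.48 and 2.33 in the galactose Day 6 lenses. All 3 Day 6 arrays were under 5. The log2 difference was 4.12 ± 0.47 (SE, adjusted p = 0.00746 in limma). Nqo1, a quinone reductase that keeps quinones from redox cycling, had 9.24 in the treated lens, against 5.25, 5.91 and 5.81 in galactose Day 6. All 4 arrays were measured above 5, and the treated one was the highest by a log2 difference of 3.58 ± 0.39, which is 12.0-fold (adjusted p = 0.00711).

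Both genes are classic targets of the transcription factor Nrf2, which is freed by electrophiles and oxidants and binds antioxidant response elements in DNA. Of a list of 30 Nrf2 target genes, 22 were kept, 6 were below the signal minimum and the others had no probe set of their own. Of the 22, 4 were called higher (Gsta1, Nqo1, Srxn1 and Txnrd1) and 0 lower, 20 differences were positive, and the treated array was above all 3 Day 6 arrays for 17. Over all genes, 0.899% were called higher, 53.3% were positive and 34.7% had the treated array above all 3. Of the kept genes, 3 were under 5 in all Day 6 arrays. The median log2 difference of the 22 was 0.52, against 0.03 over all genes.

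Srxn1, which repairs oxidised peroxiredoxins, had a log2 signal of 5.59 in the treated lens, against 3.67, 4.48 and 3.80 in galactose Day 6 (log2 difference 1.60 ± 0.30, adjusted p = 0.046, leave-one-out adjusted p = 0.127). Txnrd1, the cytosolic thioredoxin reductase, had 7.01 against 5.67, 5.97 and 5.80 (1.20 ± 0.23, adjusted p = 0.049, leave-one-out adjusted p = 0.13). The treated array was the highest for both. The iron storage subunits of ferritin did not pass the test. Fth1, its heavy chain, had 12.06 in the treated lens, against 11.52, 11.43 and 11.37 in galactose Day 6 (adjusted p = 0.221). Ftl1, its light chain, had 13.29, inside the Day 6 values of 13.22, 13.36 and 13.32. Ptgr1, a reductase of prostaglandins and of reactive aldehydes from lipids that was on no list, was called higher at 8.52, against 6.71, 6.63 and 6.91 (1.78 ± 0.32, adjusted p = 0.0366, leave-one-out adjusted p = 0.11; it is named here after its values were seen). Abcb1a, a drug efflux pump and the 1 called gene of 3 kept from a list of 17 xenobiotic response genes, had 5.73 in the treated lens, against 4.08, 3.72 and 3.39 in galactose Day 6 (1.99 ± 0.30, adjusted p = 0.0198, leave-one-out adjusted p = 0.0587). Nfe2l2, which encodes Nrf2 itself, had 8.63 against 7.76, 8.30 and 8.13, a difference that did not pass the test (adjusted p = 0.279). Separate enzymes that remove peroxide and superoxide, on a list with 14 kept members, had 0 calls and a median log2 difference of -0.02.

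The promoter of Gsta1 is shown because this gene had the highest fitted log2 difference, though one of no exact size, and the core of the antioxidant response element lies within its window. In RefSeq assembly GRCr8 the window, from 250 bases before to 50 after the gene's start, is chr9:31216483-31216782 on the minus strand. Capitals mark the core TGACNNNGC, where N is any base, which here begins 30 bases after the start.
Gsta1: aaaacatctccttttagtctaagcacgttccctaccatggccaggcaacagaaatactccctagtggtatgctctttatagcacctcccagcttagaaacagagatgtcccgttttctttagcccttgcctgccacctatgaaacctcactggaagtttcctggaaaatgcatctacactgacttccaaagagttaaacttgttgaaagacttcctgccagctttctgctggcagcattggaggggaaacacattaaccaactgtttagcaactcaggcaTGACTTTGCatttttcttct
A promoter was matched for 58 of the 72 called genes. Searched on both strands, the core was in 11 of 46 promoters of genes called higher (23.9%) and in 0 of 12 of those called lower, against 15.4% of the 5045 promoters of tested genes and 12.2% of all 27457 RefSeq promoters. The matched genes were Eda2r, Eif3a, Entpd2, Gab2, Gas2l3, Gsta1, Gtf2h1, Hsd17b7, Oser1, Sprr1a and Zfand2a, and of the 4 called Nrf2 target genes only Gsta1 had these letters in this window.

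Genes of lysosomes and autophagy formed a second group. Lysosomes are acidic compartments that digest proteins, lipids and worn-out organelles, and fibre cells clear their organelles during maturation. Lamp1, an abundant glycoprotein of the lysosomal membrane, had a log2 signal of 9.87 in the C646+CPTH2 lens, against 8.16, 8.09 and 8.06 in galactose Day 6. The Day 6 arrays lay close together and the treated array stood far above them, at a log2 difference of 1.77 ± 0.21, which is 3.41-fold (adjusted p = 0.00783 in limma). Mcoln1, a calcium channel of the lysosomal membrane, had 7.29 against 5.87, 6.07 and 5.98 (1.32 ± 0.24, adjusted p = 0.0367, leave-one-out adjusted p = 0.108). Optn, a receptor that links ubiquitin-tagged cargo to autophagosomes, had 8.54 against 7.17, 7.15 and 7.45 (1.29 ± 0.23, adjusted p = 0.0366, leave-one-out adjusted p = 0.11). For each of these the treated array was the highest of the 4, as for every gene called higher.

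Of the list of 30 autophagy and lysosome genes, 21 were kept, of which these 3 were called higher and 0 lower. Positive differences numbered 13 and negative ones 8, with a median of 0.29. Over all genes, 0.899% were called higher and 53.3% were positive. The members with the highest signals did not pass the test. Ctsl, a lysosomal cysteine protease, had a log2 signal of 10.74 in the treated lens, below the Day 6 values of 10.87, 11.09 and 11.09 (adjusted p = 0.587). Ctsb, a second such protease, had 10.09 against 8.93, 9.92 and 9.82 (adjusted p = 0.489).

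Further called genes encode lysosomal proteins outside that list, and they are named here after their values were seen. Mfsd1, a transporter of the lysosomal membrane, had 8.04 in the treated lens, against 6.15, 6.34 and 6.42 in galactose Day 6 (1.73 ± 0.29, adjusted p = 0.031, leave-one-out adjusted p = 0.0885). Smpd1, the acid sphingomyelinase, had 7.91 against 6.26, 6.36 and 6.81 (1.44 ± 0.27, adjusted p = 0.044, leave-one-out adjusted p = 0.128). Atp6v0b, a subunit of the proton pump that acidifies lysosomes, had 8.29 against 7.16, 7.14 and 7.03 (1.17 ± 0.22, adjusted p = 0.0419, leave-one-out adjusted p = 0.117). In none of these did the groups overlap.

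Cd68 and Gpnmb, glycoproteins of lysosomes that are abundant in macrophages, were among the 15 largest increases. Cd68 had a log2 signal of 7.51 in the treated lens, against 4.73, 5.21 and 4.32 in galactose Day 6 (2.75 ± 0.48, adjusted p = 0.0363, leave-one-out adjusted p = 0.108). Gpnmb had 7.87 against 5.52, 5.37 and 5.16 (2.52 ± 0.44, adjusted p = 0.0363, leave-one-out adjusted p = 0.108). Beside Cd68, the other 12 members of a list of 13 macrophage and immune markers stayed under 5 in all 4 arrays. The defining markers of macrophages were low in the treated lens, at 2.12 for Adgre1, 2.42 for Aif1, 3.38 for Csf1r and 1.85 for Ptprc. The mean of the 13 was 3.35 in the treated lens, against 3.06, 3.61 and 3.25 in galactose Day 6.

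The promoters of Lamp1 and Mcoln1 are shown because both genes rose and their windows hold more than 1 copy of the letters CACGTG, an E-box that is bound by several families of factors with a helix-loop-helix domain. The Lamp1 window is chr16:83075014-83075313 on the minus strand and the Mcoln1 window chr12:6358008-6358307 on the plus strand (RefSeq, GRCr8). Capitals mark CACGTG, which is its own reverse complement.
Lamp1: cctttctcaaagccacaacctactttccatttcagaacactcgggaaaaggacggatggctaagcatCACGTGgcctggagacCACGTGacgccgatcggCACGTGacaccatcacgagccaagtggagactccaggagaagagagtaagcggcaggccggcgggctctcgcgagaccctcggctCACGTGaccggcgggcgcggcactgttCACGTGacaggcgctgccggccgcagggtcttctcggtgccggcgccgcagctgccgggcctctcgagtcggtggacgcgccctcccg
Mcoln1: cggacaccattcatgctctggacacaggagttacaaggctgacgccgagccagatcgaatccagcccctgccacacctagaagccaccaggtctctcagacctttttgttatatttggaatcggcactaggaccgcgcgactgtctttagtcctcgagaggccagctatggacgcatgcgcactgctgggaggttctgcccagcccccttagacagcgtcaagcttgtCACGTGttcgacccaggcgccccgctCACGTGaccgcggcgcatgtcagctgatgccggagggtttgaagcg
Lamp1 had 5 copies and Mcoln1 had 2. The letters were present in 14 of 46 promoters of genes called higher (30.4%) and in 0 of 12 of those called lower, against 10.7% of the promoters of tested genes and 6.65% of all promoters.

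**Figure D2:**
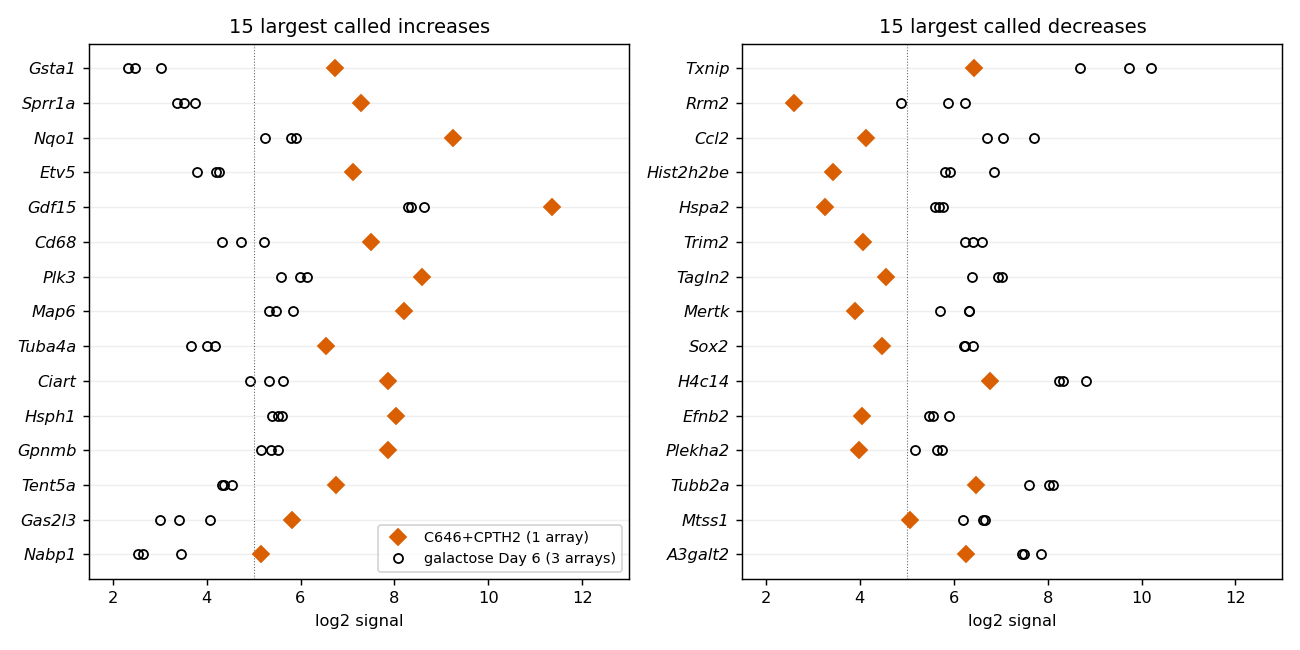
Log2 signals of called genes in the C646+CPTH2 array (n = 1) and the 3 galactose Day 6 arrays, 1 point per array, with the dotted line at the signal minimum of 5. For Nqo1 the treated point at 9.24 stands above the Day 6 points at 5.25 to 5.91, and for Txnip the treated point at 6.44 stands below those at 8.68 to 10.20.

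A single heat shock gene of the cytosol was called. Hsph1, the large heat shock protein that recharges Hsp70 during refolding, had a log2 signal of 8.04 in the C646+CPTH2 lens, against 5.39, 5.53 and 5.61 in galactose Day 6. The treated array stood well clear of the Day 6 arrays, at a log2 difference of 2.53 ± 0.25, which is 5.78-fold (adjusted p = 0.00576 in limma). It was the only called gene of a list of 25 heat shock genes, of which 18 were kept. Of these, 14 had positive differences, against 53.3% of all genes, and the median was 0.38. Over all genes, 0.899% were called higher. Hspa8, the constitutive Hsp70, had 12.39 against 11.29, 11.94 and 11.92 (adjusted p = 0.269), Hspb1, a small heat shock protein, had 9.49 against 10.20, 10.41 and 10.34 (adjusted p = 0.16), and Cryab, a crystallin that is also a small heat shock protein, had 13.11 against 13.11, 13.11 and 13.07.

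Further genes tied to protein quality were called outside the list, in both directions. Zfand2a, a zinc finger protein linked to the proteasome and named after its values were seen, had 9.23 in the treated lens, against 6.53, 7.53 and 7.32 in galactose Day 6 (2.10 ± 0.41, adjusted p = 0.0481, leave-one-out adjusted p = 0.109). Hspa2, an Hsp70 best known from the testis, fell: it had 3.26 against 5.78, 5.68 and 5.60 (log2 difference -2.43 ± 0.31, adjusted p = 0.00995). The treated array was the lowest of the 4 for Hspa2 and the highest for Zfand2a.

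The Hsph1 promoter (chr12:10427118-10427417, plus strand, RefSeq, GRCr8) is shown because its window holds a pair of heat shock element units, GAANNTTC. Capitals mark the pair.
Hsph1: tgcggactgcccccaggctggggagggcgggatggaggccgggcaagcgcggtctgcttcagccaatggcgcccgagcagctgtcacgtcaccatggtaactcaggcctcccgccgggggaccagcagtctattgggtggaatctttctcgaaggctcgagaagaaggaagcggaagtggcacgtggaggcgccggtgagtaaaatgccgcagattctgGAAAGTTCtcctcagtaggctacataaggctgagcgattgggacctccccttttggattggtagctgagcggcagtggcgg
Pairs in the order GAANNTTC were in 3 of 46 promoters of genes called higher (6.52%) and 0 of 12 of those called lower. They were in 4.88% of promoters of tested genes and 8.34% of all promoters. For comparison, CCAAT was in 39.1% of promoters of genes called higher, 41.7% of those called lower and 38.1% of those tested.

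The clock genes Ciart and Cry1 rose. Ciart, a repressor that acts on the clock's activating pair, had a log2 signal of 7.87 in the treated lens, against 4.92, 5.62 and 5.32 in galactose Day 6 (2.58 ± 0.28, adjusted p = 0.00711 in limma). Cry1, a cryptochrome that closes the clock's feedback loop, had 6.81 against 4.26, 4.81 and 4.75 (2.20 ± 0.27, adjusted p = 0.00927). As for every gene called higher, the treated array was above the Day 6 arrays. Cry1 was named after its values were seen, and no list of clock genes was fixed. The Ciart promoter (chr2:186112197-186112496, minus strand, RefSeq, GRCr8) is shown because it holds 3 copies of CACGTG, the E-box letters that clock activators are known to bind, marked in capitals.
Ciart: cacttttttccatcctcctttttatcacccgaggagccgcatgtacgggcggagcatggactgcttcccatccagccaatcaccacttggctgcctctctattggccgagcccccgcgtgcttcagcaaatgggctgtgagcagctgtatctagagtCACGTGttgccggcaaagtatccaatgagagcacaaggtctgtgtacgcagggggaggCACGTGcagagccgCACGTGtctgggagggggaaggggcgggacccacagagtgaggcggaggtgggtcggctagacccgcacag

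Stress and growth signals were the next group. Gdf15, a secreted stress hormone of the TGF-beta family, had a log2 signal of 11.36 in the treated lens, against 8.35, 8.29 and 8.62 in galactose Day 6. The treated array was far above a narrow range, at a log2 difference of 2.94 ± 0.31, which is 7.68-fold (adjusted p = 0.00711 in limma). Gdf15 was the 1 called gene among 18 kept of 23 integrated stress response genes, whose median was 0.22. Over all genes, 0.899% were called higher and the median was 0.03. Atf4, the response's main transcription factor, had 10.26, inside the Day 6 values of 10.14, 10.34 and 10.37, and Ddit3, a factor it induces, had 10.90 against 10.03, 9.29 and 9.97 (adjusted p = 0.112).

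Of 23 immediate early genes, whose transcription starts within minutes of a signal, 16 were kept, 2 were called higher and 0 lower. Of the 16, 10 differences were positive and 6 negative, with a median of 0.44. Over all genes, 0.899% were called higher, 53.3% were positive and the median was 0.03. Egr1, a zinc finger transcription factor, had 8.98 in the treated lens, against 7.35, 7.40 and 7.00 in galactose Day 6 (1.74 ± 0.24, 3.33-fold, adjusted p = 0.0156). Plk3, a kinase of stress and cell cycle control, had 8.59 against 5.59, 6.14 and 6.00 (2.69 ± 0.41, adjusted p = 0.021, leave-one-out adjusted p = 0.0659). The list's AP-1 members did not pass the test. Jund had 9.09 against 7.77, 7.95 and 7.97 (adjusted p = 0.0907), Fos had 7.61 against 6.64, 6.95 and 6.41 (adjusted p = 0.19), and Jun had 6.79, inside the Day 6 values of 6.65, 6.85 and 6.99. Etv5, an Ets factor switched on by FGF and ERK signalling, which drives fibre formation, had 7.11 against 4.26, 3.79 and 4.20 (3.03 ± 0.27, adjusted p = 0.00402). The FGF receptors on the same list of 17, of which 4 genes were kept, were not called: Fgfr2 had 6.33, below the Day 6 values of 6.76, 7.60 and 7.86 (adjusted p = 0.194).

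Of the remaining large increases, Sprr1a had the lowest p. This gene, a small proline-rich protein cross-linked into the envelope of squamous cells, had a log2 signal of 7.30 in the treated lens, against 3.75, 3.52 and 3.37 in galactose Day 6 (3.75 ± 0.24, adjusted p = 0.000391). Map6, which stabilises microtubules, had 8.20 against 5.32, 5.83 and 5.49 (2.65 ± 0.35, adjusted p = 0.0126), and Tuba4a, an alpha tubulin, had 6.54 against 4.18, 4.01 and 3.66 (2.59 ± 0.35, adjusted p = 0.0143). Tent5a, a poly(A) polymerase, had 6.76 against 4.36, 4.33 and 4.54 (2.35 ± 0.28, adjusted p = 0.00783). Below these were Gas2l3, which links actin to microtubules, and Nabp1, which binds single-stranded DNA. Like Sprr1a, Tuba4a, Tent5a and Hamp here, they were under 5 in all Day 6 arrays, so these differences have no exact size. Gas2l3 had 5.82 against 3.42, 3.00 and 4.08 (adjusted p = 0.0363, leave-one-out adjusted p = 0.0745) and Nabp1 had 5.16 against 2.55, 2.65 and 3.46 (adjusted p = 0.0353, leave-one-out adjusted p = 0.0969). Hamp, the iron hormone hepcidin and the only called gene of 11 kept iron handling genes, had 6.77 against 4.87, 4.56 and 4.59 (2.10 ± 0.25, adjusted p = 0.00783).

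The largest decrease among called genes with all 4 arrays at 5 or more was that of Txnip, an arrestin-like protein that binds thioredoxin and limits glucose uptake. It had a log2 signal of 6.44 in the C646+CPTH2 lens, against 8.68, 10.20 and 9.73 in galactose Day 6. The treated array was the lowest of the 4, at a log2 difference of -3.10 ± 0.50, which is 8.58-fold lower (adjusted p = 0.0254 in limma, leave-one-out adjusted p = 0.0873). Arrdc3, a related alpha-arrestin, had 7.79 against 8.38, 8.82 and 8.70 and did not pass (adjusted p = 0.231). Ccl2, a chemokine that attracts monocytes, had 4.14 in the treated lens, against 7.04, 7.70 and 6.72 in galactose Day 6 (-3.01 ± 0.45, adjusted p = 0.0198), and lost its call without Day 6 replicate 1 alone (adjusted p = 0.051). It was the only call among 12 kept of 23 inflammatory genes, whose median was -0.26, and 0.3% of all genes were called lower.

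Rrm2, the regulated subunit of the enzyme that makes DNA building blocks, had a log2 signal of 2.60 in the treated lens, against 4.87, 6.24 and 5.89 in galactose Day 6 (-3.07 ± 0.55, adjusted p = 0.0367, leave-one-out adjusted p = 0.117). It was the only call among 12 kept of 30 replication and proliferation genes, and 0.3% of all genes were called lower. Of the 12, 11 had negative differences, against 46.7% of all genes, and their median was -0.43. Pcna, the sliding clamp of DNA polymerases, had 7.02 against 7.33, 7.11 and 7.08 (adjusted p = 0.764).

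Histone genes, which package DNA and whose copies for S phase are made during replication, were low in the treated lens. Of 29 histone genes listed, 11 were kept and 4 were below the signal minimum. Of the 11, 2 were called lower and 0 higher, 10 had the treated array below all 3 Day 6 arrays, and the median was -0.98. Over all genes, 0.3% were called lower and 28.2% had the treated array below all 3. Hist2h2be, an H2B gene, had a log2 signal of 3.43 against 5.92, 6.85 and 5.82 (-2.76 ± 0.38, adjusted p = 0.0143 in limma). H4c14, an H4 gene, had 6.76 against 8.32, 8.83 and 8.24 (-1.70 ± 0.28, 3.24-fold lower, adjusted p = 0.0273, leave-one-out adjusted p = 0.0557). Neither overlapped. The next members missed the threshold: Hist2h3c2 had 7.90 against 9.37, 9.88 and 9.58 (adjusted p = 0.0647), H2ac25 had 6.31 against 7.79, 8.58 and 8.13 (adjusted p = 0.085), and the replacement histone H3f3b, which is made outside S phase, had 10.51 against 11.19, 11.52 and 11.32 (adjusted p = 0.115). Histone genes share long stretches of sequence, so signal on the array may be split between copies.

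Sox2, Mertk, Efnb2 and Trim2, which were on no list, were also called lower. Sox2, a transcription factor that works with Pax6 in the lens and its precursor, had a log2 signal of 4.46 in the treated lens, against 6.22, 6.41 and 6.23 in galactose Day 6 (-1.82 ± 0.32, adjusted p = 0.0366 in limma, leave-one-out adjusted p = 0.11). Mertk, a receptor for the engulfment of dead cells, had 3.90 against 6.32, 5.71 and 6.32 (-2.21 ± 0.34, adjusted p = 0.0221, leave-one-out adjusted p = 0.0762). Efnb2, a membrane ligand of Eph receptors, had 4.04 against 5.55, 5.46 and 5.90 (-1.60 ± 0.25, adjusted p = 0.0228, leave-one-out adjusted p = 0.0615). Trim2, a ubiquitin ligase, had 4.06 against 6.40, 6.24 and 6.61 (-2.35 ± 0.29, adjusted p = 0.00942). For all of these the treated array was below every Day 6 array.

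Markers of the lens epithelium were measured as a list of 10, of which 9 were kept and 1 had no probe set of its own. None of the 9 was called, 7 had an unadjusted p under 0.05, all 9 differences were negative, and the treated array was below all 3 Day 6 arrays for 8. Over all genes, 7.81% were lower at an unadjusted limma p under 0.05. For 46.7% the difference was negative, and for 28.2% the treated array was below all 3. The median log2 difference was -0.98, against 0.03 over all genes. Cdh1, the cadherin that joins epithelial cells, had a log2 signal of 5.25 in the treated lens, against 7.42, 8.74 and 8.96 in galactose Day 6 (adjusted p = 0.096 in limma). Pax6, the master transcription factor of the eye, had 5.36 against 6.69, 7.92 and 7.90 (adjusted p = 0.085), and Gja1, a gap junction channel, had 5.04 against 5.87, 8.08 and 7.59 (adjusted p = 0.28). Slc2a1, the glucose transporter, had 9.49, inside the Day 6 values of 9.13, 9.77 and 9.92.

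The mean of the 9 markers was 5.29 in the treated lens, against 6.07, 6.89 and 6.97 in galactose Day 6, with replicate 1 the lowest of the Day 6 arrays. It was 6.78 with C646 alone, 6.43 with CPTH2 alone, 6.72 with CBP30+CPTH2 and 7.64 in the control. Of the galactose Day 4 arrays, replicate 1 had 5.70, nearer to the treated lens than any Day 6 array, and replicates 2 and 3 had 6.57 and 6.80. The part of epithelial cells in the decreases of single genes was not tested. Without Day 6 replicate 1, 2 or 3 the median of the 9 differences was -1.19, -1.08 or -0.85, and only leaving out replicate 1 gave a call, of 1 gene. In the treated array, 5 of the 9 were under 5. The fibre cell and crystallin markers of the labelled tissue were high in all 4 arrays. Fibre cell markers averaged 10.35 in the treated lens, against 10.35, 10.50 and 10.52 in galactose Day 6, and crystallins averaged 11.96 against 12.31, 12.16 and 12.17. Mip, the water channel of fibre membranes, had 10.90 against 11.16, 11.03 and 11.15. The fibre and crystallin lists, with 10 kept members each, had 0 calls and medians of -0.08 and -0.13. Lists of photoreceptor, vascular endothelium, smooth muscle and red blood cell markers had 0 members that reached the signal minimum.

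**Figure D3:**
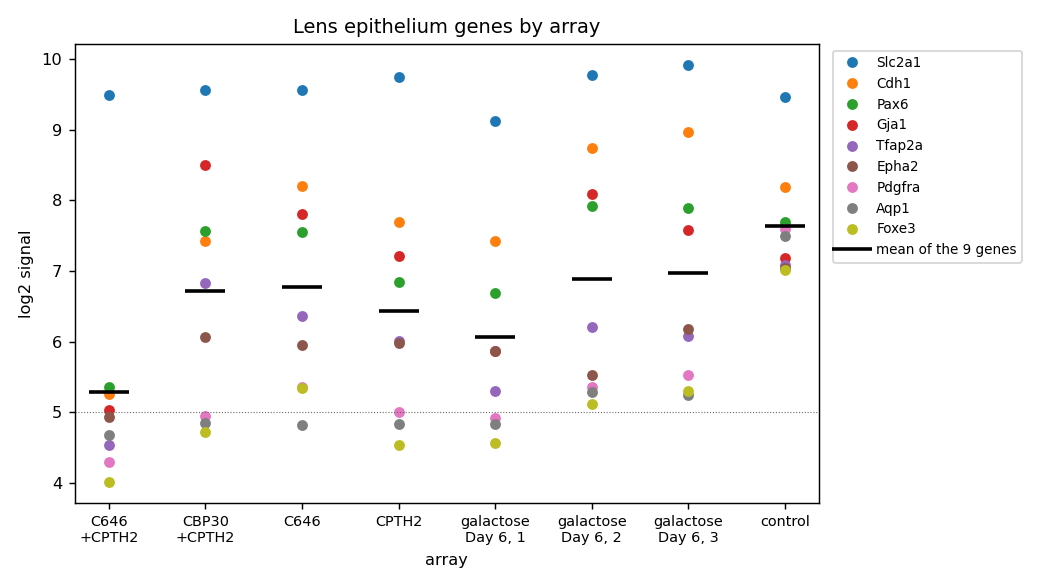
Log2 signals of lens epithelium markers across arrays, 1 point per array, with the mean of the 9 markers. The mean is 5.29 in the C646+CPTH2 array and 6.07 to 6.97 in the 3 galactose Day 6 arrays, of which replicate 1 is the lowest.

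The lens capsule, a basement membrane made of type 4 collagens and laminins, and the cells' contractile apparatus gave mostly negative differences. Of 23 capsule genes, 11 were kept with 0 calls, 10 negative differences (46.7% over all genes) and a median of -0.72. Col4a1, a main collagen of the capsule, had a log2 signal of 5.40 in the treated lens, against 6.10, 6.30 and 7.09 in galactose Day 6 (adjusted p = 0.252 in limma). Vim, the intermediate filament of lens cells, was on the same list at 12.03, inside the Day 6 values of 11.65, 12.43 and 12.41.

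Of 33 contractile actin and focal adhesion genes, 23 were kept, 1 was called in each direction, 18 differences were negative (46.7% over all genes) and the median was -0.55. Tagln2, an actin-binding calponin relative, had a log2 signal of 4.56 in the treated lens, against 6.39, 6.94 and 7.03 in galactose Day 6 (-2.23 ± 0.33, adjusted p = 0.0198, leave-one-out adjusted p = 0.0615). Tln1, which couples integrins to actin, rose and had 7.19 against 6.00, 5.93 and 6.13 (1.18 ± 0.21, adjusted p = 0.0363, leave-one-out adjusted p = 0.11). As for every called gene, the treated array lay outside the Day 6 range for both. Actb, the main cytoplasmic actin, had 12.09, inside the Day 6 values of 12.05, 12.38 and 12.23. Of 10 kept of 17 tubulins and stathmins, Tuba4a was called higher, as given above, and Tubb2a, a beta tubulin, was called lower at 6.47 against 8.11, 8.02 and 7.61 (-1.44 ± 0.24, 2.72-fold lower, adjusted p = 0.0302, leave-one-out adjusted p = 0.0964).

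The study named 19 genes as lowered by C646+CPTH2. Its candidates were picked on these arrays and then measured by RT-qPCR, which was not analysed here, so their direction on the arrays is no independent evidence. Of the 15 kept, all 15 differences were negative, 1 was called and the median was -0.84. Over all genes, 46.7% of differences were negative and 0.3% were called lower. The called gene was A3galt2, an enzyme that adds galactose to glycolipids, with a log2 signal of 6.26 in the treated lens, against 7.49, 7.45 and 7.87 in galactose Day 6 (-1.34 ± 0.24, adjusted p = 0.0366 in limma, leave-one-out adjusted p = 0.0957). Tagln, a smooth muscle actin-binding protein, had 6.80 against 7.66, 8.33 and 8.83 (adjusted p = 0.155) and Cd81, a membrane scaffold, had 9.16 against 9.36, 10.83 and 10.74 (adjusted p = 0.389). Acta1, the skeletal muscle actin, had 6.08 against 6.18, 6.77 and 7.81 (adjusted p = 0.528), and Stmn4, a tubulin-binding stathmin, had 4.59 against 6.39, 5.67 and 5.23 (adjusted p = 0.238). For all 4 of these genes the treated array was below every Day 6 array, as for 28.2% of all genes, and the differences did not pass the test. Mdk, a heparin-binding growth factor, had 8.01, inside the Day 6 values of 7.73, 8.86 and 8.84.

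Lists of tRNA charging, amino acid transport, chaperones of the endoplasmic reticulum and ribosome biogenesis had mostly positive differences and 0 calls. Over all genes, 53.3% of differences were positive and 1.2% were called. Of 23 aminoacyl-tRNA synthetases, which load amino acids onto tRNAs, 17 were kept with 0 calls, 14 positive differences and a median of 0.57. Sars1, for serine, had a log2 signal of 10.57 in the treated lens, against 9.55, 9.76 and 10.20 in galactose Day 6 (adjusted p = 0.202 in limma). Of 18 amino acid transporters, 10 were kept with 0 calls and a median of 0.62. Among 20 kept of 22 chaperones of the endoplasmic reticulum, 0 were called and 16 were positive, with a median of 0.26. Hspa5, the main chaperone there, came closest at 10.91 against 9.58, 9.56 and 9.41 (1.40, adjusted p = 0.0556). Of 26 ribosome biogenesis genes, 17 were kept, 0 were called and 15 were positive, with a median of 0.47. Ncl, nucleolin, had 10.82 against 9.57, 10.04 and 10.04 (adjusted p = 0.112). In each of these examples the treated array was the highest of the 4, as it was for 34.7% of all genes.

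Larger lists of housekeeping machinery lay nearer to the median of all genes, of which 46.7% had negative differences. The 72 kept genes of oxidative phosphorylation had 56 negative differences and a median of -0.15, the 45 cytosolic ribosomal proteins 37 negative differences and a median of -0.17, the 61 mitochondrial ribosomal proteins 39 and -0.09, and the 33 proteasome subunits a median of 0.23, with 0 calls in each. Of acetyltransferases, deacetylases and sirtuins, the enzyme families to which the inhibitors' targets belong, 20 genes were kept with 0 calls and a median of -0.03. Crebbp, which encodes CBP, had a log2 signal of 6.79 in the treated lens, against 6.08, 6.11 and 6.34 in galactose Day 6 (adjusted p = 0.192 in limma).

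**Figure D4:**
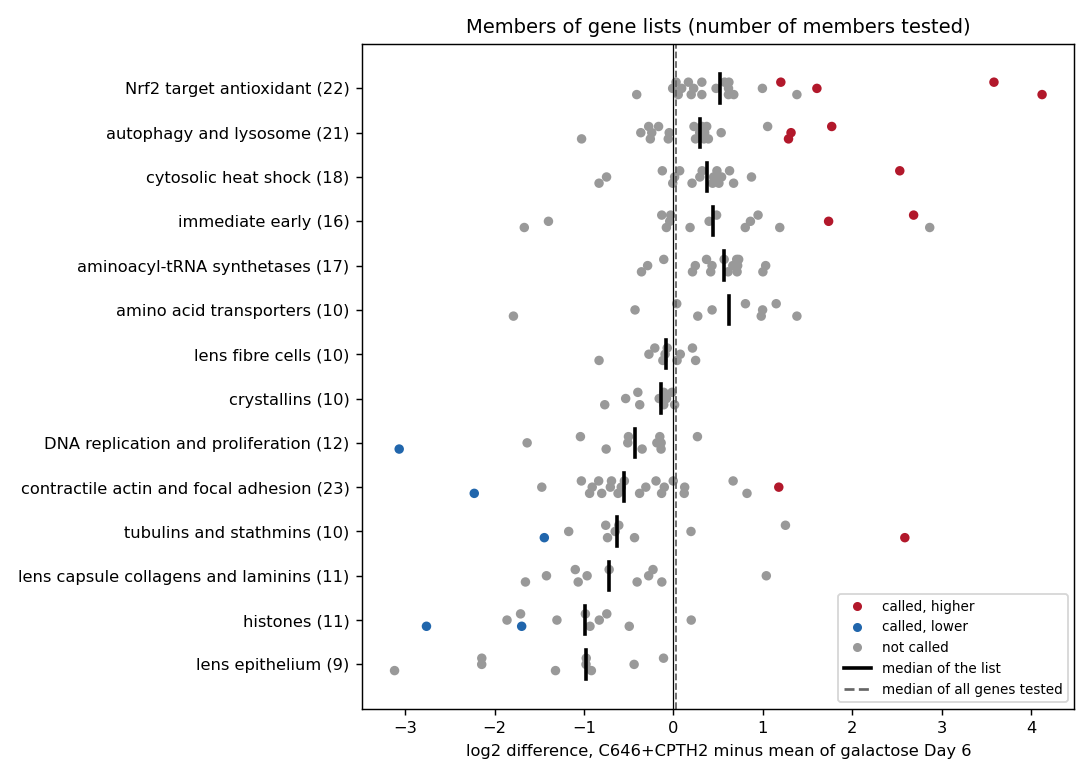
Log2 differences (C646+CPTH2 minus the mean of 3 galactose Day 6 arrays) of each kept gene of the gene lists, 1 row per list, with called genes in colour a bar at the list median and a dashed line at the median of all genes. The Nrf2 row has 4 called genes and a median of 0.52, and the lens epithelium row has none and a median of -0.98.

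The same genes were set against each inhibitor alone, to see what the second compound added at the same dose and day. Counting that with galactose Day 6, 5 comparisons of the C646+CPTH2 array were fitted, and p-values were adjusted over the 6007 genes within each. With 1 array on both sides, the spread came from the galactose groups and the median 95% interval reached 0.702 to either side. Against C646 alone, 3 genes were called, all of them higher (0.0499%), with 502 (8.36%) at unadjusted p under 0.05. The count was 1, 4 or 1 without Day 6 replicate 1, 2 or 3 and 9, 2 or 3 without Day 4 replicate 1, 2 or 3. With replicates 2 and 3 of both days only, calls were 26 higher and 41 lower. Sprr1a had a log2 signal of 7.30 with C646+CPTH2 and 4.27 with C646 (difference 3.03, 95% interval 2.37 to 3.69, adjusted p = 0.0145 in limma). Hsph1 had 8.04 with C646+CPTH2 and 5.29 with C646 (2.75, 2.06 to 3.44, adjusted p = 0.0236), and Etv5 had 7.11 and 4.25 in the same order (2.86, 2.10 to 3.62, adjusted p = 0.024). Against CPTH2 alone, 0 genes were called in limma and 383 (6.38%) had an unadjusted p under 0.05, and only leaving out Day 4 replicate 1 of the galactose arrays gave calls, of 4 genes. The median difference from CPTH2 alone over all genes was -0.141. The lowest adjusted p was 0.0664, shared by Hsph1, with 8.04 for C646+CPTH2 and 5.44 for CPTH2 (2.60, 1.91 to 3.29), and Tgfb3, a TGF-beta ligand, with a difference of -2.11.

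The single-inhibitor arrays differed gene by gene in how near they lay to the combination. Set against the same galactose Day 6 arrays, C646 alone had 0 calls in limma with 238 genes (3.96%) at unadjusted p under 0.05, and CPTH2 alone had 2 calls (0.0333%), Sprr1a and Sacm1l, a lipid phosphatase, both higher, with 773 (12.9%). These comparisons and that of C646+CPTH2 share the Day 6 arrays, so each gene's values are given side by side without a test between them. Nqo1 had 9.24 with C646+CPTH2, 8.12 with C646 and 6.16 with CPTH2, against Day 6 values of 5.25 to 5.91. Gsta1 had 6.73 with C646+CPTH2, 4.90 with C646 and 2.79 with CPTH2, against 2.33 to 3.03. For both, the C646 array was nearer to the combination than the CPTH2 array was. Txnip had 6.44 with C646+CPTH2, 9.13 with C646 and 6.74 with CPTH2, against 8.68 to 10.20. Plk3 had 8.59 with C646+CPTH2, 6.43 with C646 and 8.41 with CPTH2, against 5.59 to 6.14. Here the CPTH2 array was the nearer one. Hsph1 was near its Day 6 values of 5.39 to 5.61 in both single arrays, at 5.29 and 5.44, and Map6 had 8.20 with C646+CPTH2 but 5.61 with C646 and 6.28 with CPTH2, against 5.32 to 5.83.

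A formal test asked whether the combination departed from the sum of both single effects. In limma 0 genes passed, 407 (6.78%) had an unadjusted p under 0.05, and the lowest adjusted p was 0.249. The departures were not centred on 0, with a median over all genes of -0.233, or 0.00788 after quantile normalization. The median 95% interval of this departure reached 0.906 to either side, so departures of that size were within the error of single arrays. Hsph1 had a departure of 2.82 (95% interval 1.92 to 3.71). Dusp1, a phosphatase of MAP kinases, had a departure of -3.89. Both genes had the lowest adjusted p and were named after their values were seen, as was Tgfb3.

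**Figure D5:**
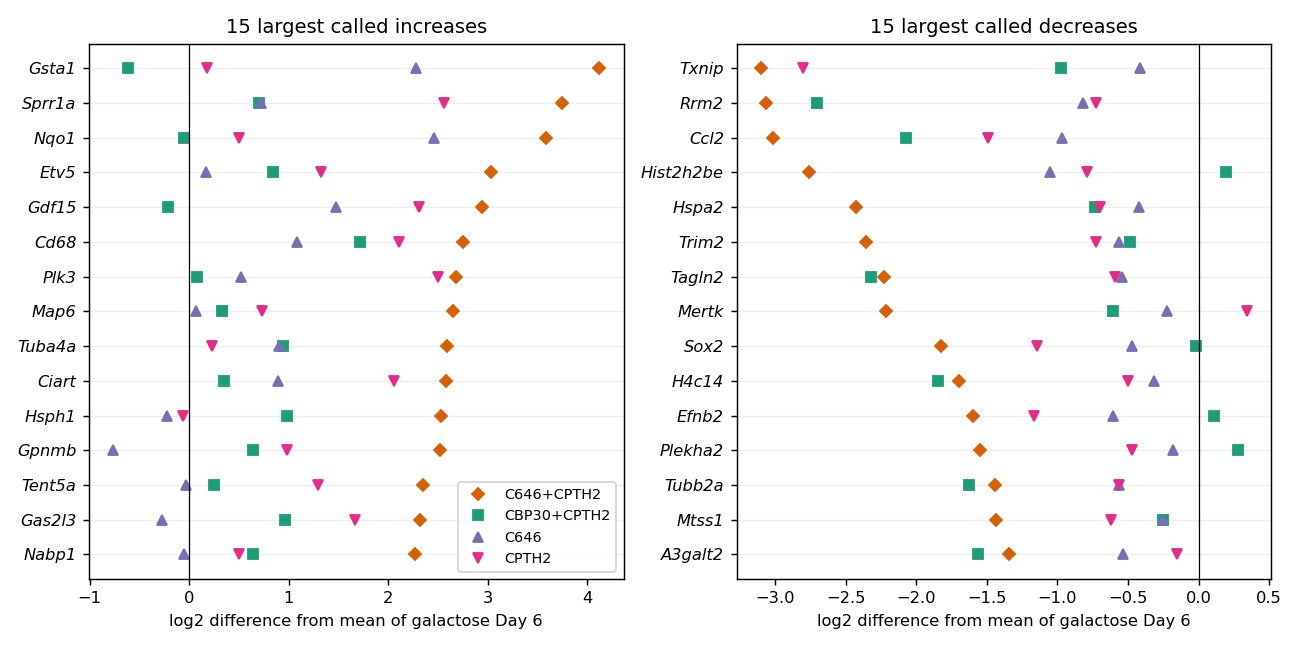
Log2 differences from the mean of the 3 galactose Day 6 arrays for C646+CPTH2, CBP30+CPTH2, C646 alone and CPTH2 alone (1 array each), for the 15 largest called increases and decreases. For Hsph1 the point of the combination is at 2.53 while the points of C646 and CPTH2 alone lie near 0.

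CBP30+CPTH2 paired another p300/CBP inhibitor with the same CPTH2 dose. CBP30 is given at 10 µM in the methods, with no separate dose for it in the label, so the p300/CBP inhibitors were not at matched doses and their values stand side by side. In root mean square log2 difference over all genes, the C646+CPTH2 array was 0.541 from CBP30+CPTH2, against 0.432 from CPTH2 alone and 0.487 from C646 alone. Between these arrays 6 genes were called in limma, 5 higher with C646+CPTH2 (0.0832%) and 1 lower (0.0166%), or 0.0999% in all, with 824 (13.7%) at unadjusted p under 0.05. The count was 5, 2 or 2 without Day 6 replicate 1, 2 or 3 and 12, 1 or 5 without Day 4 replicate 1, 2 or 3. With replicates 2 and 3 of both days only, calls were 34 higher and 43 lower. Gsta1 had a log2 signal of 6.73 with C646+CPTH2 and 2.00 with CBP30+CPTH2 (adjusted p = 0.0199), Nqo1 had 9.24 and 5.61 in the same order (adjusted p = 0.0333), and Gdf15 had 11.36 and 8.21 (adjusted p = 0.0199). Sprr1a had 7.30 and 4.25 (adjusted p = 0.0139) and Egr1 had 8.98 and 6.38 (adjusted p = 0.0199). In the CBP30+CPTH2 array, Nqo1 lay inside the Day 6 range of 5.25 to 5.91 and Gdf15 just below that of 8.29 to 8.62. Brd2, a bromodomain protein that reads acetylated histones, was the gene called lower, with 7.44 for C646+CPTH2 and 10.34 for CBP30+CPTH2 (-2.89, adjusted p = 0.0199), against Day 6 values of 7.49, 7.94 and 7.90. Lamp1, in contrast, had 9.87 with C646+CPTH2 and 9.33 with CBP30+CPTH2, and Tagln2 had 4.56 and 4.46.

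Genes were also grouped by the direction galactose had taken by Day 4, in a comparison whose means share no array with that of C646+CPTH2 and galactose Day 6. Both comparisons do take each gene's spread from the same galactose arrays. Genes of low spread are thus more easily called in both, and the shares of calls below are not independent. Galactose Day 4 against the control called 185 genes (3.08%), 139 higher (2.31%) and 46 lower (0.766%), and the count was 315, 104 or 94 without Day 6 replicate 1, 2 or 3 and 162, 38 or 36 without Day 4 replicate 1, 2 or 3. Of the 139, 60 (43.2%) had a negative and 79 a positive difference between C646+CPTH2 and galactose Day 6, with a median of 0.07. Called higher were 7 (5.04%, against 0.899% of all genes), namely Gdf15, Hsd17b7, Ints12, Nqo1, Nrip3, Plk3 and Zfand2a, and called lower were 4 (2.88%, against 0.3%), namely A3galt2, Gpr160, Hist2h2be and Tubb2a. Of the 46 genes lower with galactose, 32 (69.6%) were negative with C646+CPTH2 as well, against 46.7% of all genes, with a median of -0.30 and 0 calls. The control was a single array of day 4, so culture time also separates it from the Day 6 arrays.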

How the data were processed

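Whole cultured rat lenses were ground, and their total RNA was amplified, labelled and hybridised to GeneChip Rat Gene 2.0 ST arrays, 1 per sample. For the 13 arrays the authors deposited log2 signals of 36685 probe sets, preprocessed in R. The background correction, the normalization and the summary of the probes are not given in the sources used here, and a different scaling would shift all differences of an array together. The values were used as deposited. The medians over the genes kept were 5.92 in the C646+CPTH2 array and 5.82, 5.87 and 5.92 in the galactose Day 6 arrays.

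Of the probe sets, 18511 carry 1 gene name in the platform annotation, 575 carry several and 17599 carry none. Of several probe sets of a gene (291 genes), the one with the highest mean was taken. A gene was kept where the log2 signal was 5 or more in at least 1 of the 4 arrays compared.

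Each condition was a group of its own in a linear model of all 13 arrays (limma 3.58.1, R 4.3.3). Tests were two-sided, and p-values were adjusted over the 6007 genes by Benjamini-Hochberg. The residual degrees of freedom were 4, the prior ones 5.15, and the prior standard deviation was 0.221. Only the galactose groups were replicated, so each lone array was assumed to vary like them. Simulated tables for the comparison of C646+CPTH2 with galactose Day 6 held 200 changed genes of 6007. Of the genes changed by a log2 of 1, 26.4% were called, and of those changed by a log2 of 2, 92.5%, while 5.45% of calls were false. The simulated noise was drawn from the fit's own prior spread, independent between genes and alike for all arrays. These shares cannot test whether the lone array varied like the galactose groups, and they are not error rates of the real comparison.

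The members and gene lists were chosen with earlier results of these data known. Named genes are drawn from the 15 largest called changes in each direction, up to 6 members per list, genes the study names for C646+CPTH2, and up to 10 called genes per direction in further comparisons. Of the 15 largest called decreases, Plekha2 (log2 difference -1.55) and Mtss1 (-1.43) are not described further. Others are marked. Promoters came from RefSeq (GRCr8). The alternatives were quantile normalization, median centring, other signal filters, probe sets, spreads and reference groups, a replicate block and leaving out each galactose array. Tables were handled in Python 3.11.15 (scipy 1.17.1, numpy 2.4.6, pandas 2.3.3). The opacity, histology and RT-qPCR of the study were not analysed here.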

Additional observations from a re-analysis of the deposited data

How the results depend on the processing

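The direction of all 72 called genes was kept in all 17 alternatives, though many of these could not turn it. Leaving out a galactose array, the replicate block and changes of the filter or the spread cannot reverse the sign of a called gene. The balance of calls did turn from mostly higher to mostly lower with a replicate block and with replicates 2 and 3 of both days only. Calls were less stable, since none of the 72 passed in every alternative that tested it. The count of 72 genes was 74 after quantile normalization, 77 after median centring and 131 with both galactose days as the reference. It was 21 with only the C646+CPTH2 and galactose Day 6 arrays in the fit and 16 with no filter on signal. An intensity trend and robust spread gave 63. With each gene's own spread, 1 gene was called, a lower one that was not among the 72, and all 72 lost their call. Leaving out each galactose array in turn gave 27 to 126 genes. For the comparison with C646 (3 genes), quantile normalization gave 5 and leaving out an array 1 to 9, for that with CBP30+CPTH2 (6 genes) leaving out an array gave 1 to 12, for that with CPTH2 (0 genes) quantile normalization gave 2 and leaving out an array 0 to 4, and for galactose Day 4 against the control (185 genes) quantile normalization gave 89 and leaving out an array 36 to 315. The causes were not tested.

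With a replicate block the counts were 292 for C646+CPTH2 against galactose Day 6 (141 higher and 151 lower, or 48.3% higher, against 75.0% without it), 80 against C646 (29 higher and 51 lower), 24 against CPTH2 (7 and 17), 84 against CBP30+CPTH2 (28 and 56), 15 for the departure from the sum (1 and 14) and 431 for galactose Day 4 against the control. Whether the replicate numbers pair the samples was not settled. Same-numbered Day 4 and Day 6 arrays deviated together at r = 0.356, 0.0823 and 0.27 across genes, against -0.309 to 0.15 for differently numbered ones. Day 4 replicates 1 and 3 were nearest to the Day 6 array of the same number, while Day 4 replicate 2 was nearest to Day 6 replicate 3. With replicates 2 and 3 of both days only, chosen after seeing the data, the counts were 483, 67, 11 and 77 for the comparisons with galactose Day 6, C646, CPTH2 and CBP30+CPTH2, and 624 for galactose Day 4 against the control. In that setting the lens epithelium list had 6 genes called lower and the histone list 7. The number of arrays, with 1 for the treatment, limits every count.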

Other observations

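Some gene groups with few calls have not been described above. Over all genes, 53.3% of differences were positive and 46.7% negative. Of 14 kept cholesterol synthesis genes, 10 had positive differences between C646+CPTH2 and galactose Day 6 and the median log2 difference was 0.25. Hsd17b7, a reductase of that pathway, was called higher in limma, with a log2 signal of 5.07 against 3.71, 3.21 and 3.25 (adjusted p = 0.021, up to 0.0687 when each galactose array was left out). Insig1, which restrains the pathway's transcription factor, had 8.99 against 7.93, 8.27 and 8.19 (adjusted p = 0.124). Of 12 kept p53 target genes, Eda2r, a receptor of the TNF family, was called, with 5.54 against 3.33, 4.06 and 3.10 (adjusted p = 0.0474, up to 0.117 likewise), and the median was 0.41. Tp53inp1, an autophagy and stress protein, had 9.23 against 7.53, 7.90 and 8.06 (adjusted p = 0.0611). Of 18 kept glycolysis and hypoxia genes, 13 had negative differences, 0 were called and the median was -0.35. Of 7 kept genes for the polyol pathway, galactose use and osmotic response, 0 were called. Akr1b1, aldose reductase, had 9.51, inside the Day 6 values of 9.39, 9.89 and 9.73. Of 9 kept YAP target genes, 0 were called, and they went different ways: Ankrd1, a muscle ankyrin repeat protein, had 7.13 against 5.74, 4.76 and 4.30 (adjusted p = 0.0853), while Ccn2, a matrix protein, had 6.27 against 7.67, 6.26 and 6.98.

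Probe sets without a gene name were fitted together with the named ones. Of 3257 with no name, 6 were higher and 11 lower with C646+CPTH2 (0.522%), and of 6120 with 1 name in the same fit, 12 were higher and 2 lower (0.229%). Of 211 with several names, 0 passed and 26 had an unadjusted p under 0.05. These sets were left out of the counts above.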
